A study of Mus musculus with 14 samples.

Results

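Reactive astrocyte genes are described here as 9 genes chosen by their symbols, Gfap, Vim, Nes, Lcn2, Serpina3n, Steap4, Timp1, Cd44 and Ptx3, out of 46904 genes in the expression table. The rule names symbols and sets no threshold on a measured value, although the genes were picked with earlier results of these data known. All 9 genes passed the filter on low values, which kept 46102 genes. Expression was measured by sequencing polyadenylated RNA from whole brain hemispheres of 12-week-old male mice, taken 48 h after a 20 min occlusion of the middle cerebral artery (MCAO). Cort-/- mice lack the gene for the neuropeptide cortistatin in every cell, and Cort+/+ mice are the wild type of the same C57BL/6J background. From each genotype the ischemic hemisphere (MCAO) was set against the hemisphere on the other side (contralateral, CL), so the control tissue also came from operated animals. The 14 libraries are 3 of Cort+/+ CL, 3 of Cort+/+ MCAO (replicates 2 to 4), 3 of Cort-/- CL and 5 of Cort-/- MCAO. The methods give 5 replicates for MCAO, and Cort+/+ MCAO libraries beyond these 3 were not analysed here. The methods also say that replicates which did not group with the rest could be left out where variability was large; whether this bears on the spread within Cort+/+ MCAO was not tested. The study describes its replicates as biologically independent, and the labels do not say whether a CL and an MCAO library with the same number came from the same mouse.

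Astrocytes answer brain injury with a change of state known as reactive astrogliosis, in which they thicken their processes and build up intermediate filaments. They also secrete acute-phase proteins and regulators of the extracellular matrix, and form the border around a lesion. Cytokines from microglia and from dying tissue start this response, and the signals run through the transcription factors STAT3 and NF-kappaB. Several of these genes are also used by other cells: Vim by endothelial and immune cells, Cd44 by leukocytes, Nes by neural progenitors and new vessels, and Lcn2 by neutrophils. In RNA from whole tissue, a change in the number of cells of a type and a change in RNA per cell cannot be told apart.

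The libraries held 25991115 to 43034554 reads assigned to genes. Cort itself lay between 2.61 and 5.68 RPKM (reads scaled to the length of the gene and to the size of the library) in the 6 Cort+/+ libraries and between 0 and 0.136 RPKM in the 8 Cort-/- libraries, so each library followed its genotype label. The lowest Cort+/+ value, 2.61 RPKM, was that of CL replicate 1, a library whose reactive astrocyte genes also stood apart from those of its group, as given with the contralateral hemispheres. Defining astrocyte markers (Aqp4, Aldh1l1, Slc1a2, Slc1a3, Gja1 and 7 more, 12 in all) summed to 1365 to 1558 RPKM in CL and 1305 to 1521 RPKM in MCAO libraries, with none at 0 in any group.

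In the ischemic hemisphere 5 of the 9 genes were higher than in the CL hemisphere when both genotypes were averaged: Gfap, Vim, Nes, Timp1 and Cd44, by 3.27-fold to 6.11-fold. This was at an adjusted p under 0.05 from limma, corrected by the Benjamini-Hochberg method over all genes tested, and 2.52% of all genes were called higher by the same rule. In Cort-/- mice alone 4 were called higher (Gfap, Vim, Nes and Cd44), against 1.34% of all genes, and in Cort+/+ mice alone 0 were, against 0.00868% of all genes. By the unadjusted p under 0.05, 8, 7 and 5 of the 9 genes were higher over both genotypes, in Cort-/- and in Cort+/+, against 8.02%, 6.66% and 4.88% of all genes. These shares run over all 46102 genes tested, many of them at low levels. With only the 17476 genes averaging 0.5 RPKM or more, which leaves out Steap4, 7, 5 and 1 of the list were called by adjusted p in the same comparisons. In that fit 2180, 1290 and 28 of all genes were called in either direction. In the main fit the median log2 fold change of the 9 genes was 1.75 over both genotypes, 1.96 in Cort-/- and 1.66 in Cort+/+. The median over all genes tested was 0.00 in each. Steap4, with a fold of 1.17 over both genotypes, was the gene of the list nearest to no change. With the Cort-/- libraries fitted alone, 1 of those 4 genes, Nes, was called, and the calls over all genes fell from 792 to 86. With limma voom on read numbers, the calls grew by Nes in Cort+/+ (adjusted p = 0.0217), Timp1 in Cort-/- (0.0405), and Serpina3n (0.0313) and Ptx3 (0.0242) over both genotypes. The calls over all genes were then 54, 1415 and 2172 in these 3 comparisons, against 5, 792 and 1579 in the main fit.

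**Figure D1:**
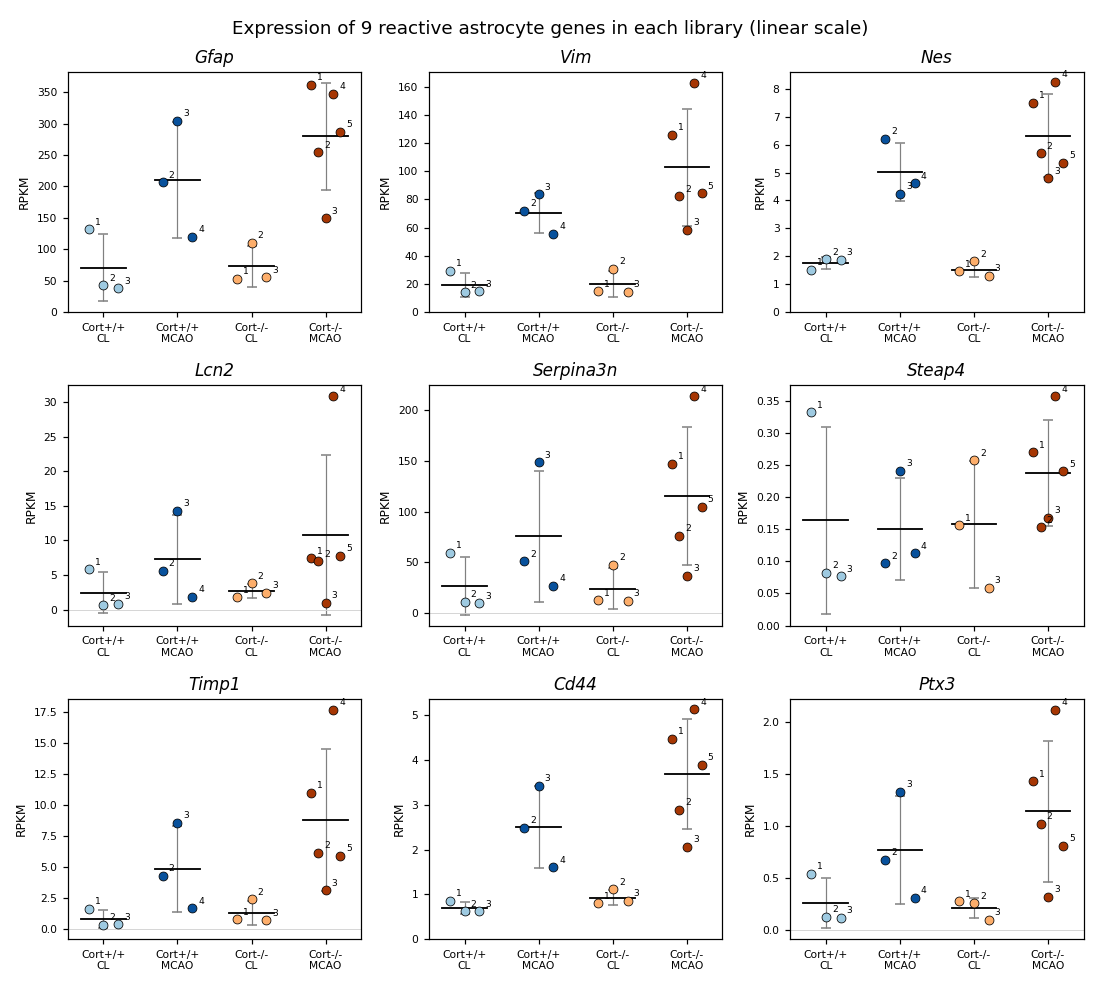
Expression in RPKM (vertical axis, linear, a separate scale for each gene) of the 9 genes in the 14 libraries, grouped by genotype and hemisphere on the horizontal axis. Points are libraries with their replicate numbers, black lines are group means and grey bars are ± 1 SD (n = 3, or 5 for Cort-/- MCAO). For Vim, Nes and Cd44 the 8 MCAO libraries lie above the 6 CL libraries, while CL replicate 1 of Cort+/+ reaches into the MCAO range of Gfap, Lcn2, Serpina3n, Steap4 and Ptx3.

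Of the regions upstream of these genes, 3 are printed because they hold the only matches, among the letter patterns searched, in windows free of other annotated exons. They are the 250 bases before the annotated start of the canonical transcript (GENCODE M39, build GRCm39), 5′ to 3′ on the strand of the gene, with the match in capitals.
Serpina3n, chr12:104372560-104372809, plus strand: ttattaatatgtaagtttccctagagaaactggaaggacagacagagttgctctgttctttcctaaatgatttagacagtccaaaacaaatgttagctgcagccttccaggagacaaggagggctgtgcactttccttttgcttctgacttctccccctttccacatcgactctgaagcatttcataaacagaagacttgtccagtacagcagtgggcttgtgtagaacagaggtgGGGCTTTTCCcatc
Steap4, chr5:8010010-8010259, plus strand: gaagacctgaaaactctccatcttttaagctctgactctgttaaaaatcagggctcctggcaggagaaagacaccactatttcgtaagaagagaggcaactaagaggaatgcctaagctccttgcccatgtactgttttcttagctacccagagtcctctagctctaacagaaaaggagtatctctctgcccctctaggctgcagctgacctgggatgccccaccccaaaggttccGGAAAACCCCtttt
Ptx3, chr3:66127081-66127330, plus strand: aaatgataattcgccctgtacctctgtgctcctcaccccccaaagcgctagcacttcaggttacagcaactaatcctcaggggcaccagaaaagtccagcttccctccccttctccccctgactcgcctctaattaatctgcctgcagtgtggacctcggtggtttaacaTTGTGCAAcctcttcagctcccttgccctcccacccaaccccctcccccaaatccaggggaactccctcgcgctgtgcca

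The capitals in Serpina3n and Steap4 match letters of an NF-kappaB motif (GGG, any 2 bases, then TTTCC, read on either strand) at 14 to 5 bases before the start in both genes. This pattern was in 2 of the 9 windows and in 1.47% of the windows of 21757 protein-coding genes. The capitals in Ptx3, 80 to 73 bases before the start, match TTGCNNAA, letters of a C/EBP motif, which was in 9.34% of all windows. Lcn2 holds the same pattern 158 to 151 bases before its start. Letters of a STAT motif (TTCNNNGAA, 7.70% of all windows, and the stricter TTCCNGGAA, 0.942%), an AP-1 motif (TGANTCA, 6.18%) and a TATA box (TATAAA, 11.9%) were in 0 of the 9 windows. Both strands were searched and the stricter STAT pattern lies within the looser one. A match here is a description of letters in a short window, and whether it bears on expression was not tested. The log2 fold change over both genotypes was 0.22 for Steap4 (95% confidence interval -0.36 to 0.81). For Serpina3n it was 1.99 (0.78 to 3.20), and the difference between these 2 genes was not tested.

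Gfap, the main intermediate filament protein of astrocytes, lies on chromosome 11 (102778159 to 102791738, minus strand, 9 exons in the canonical transcript). In Cort+/+ mice it was at 132, 42.8 and 37.9 RPKM in the CL libraries 1 to 3 and at 207, 304 and 120 RPKM in the MCAO libraries 2 to 4. The Cort-/- libraries stood at 53.0, 110 and 55.4 RPKM in CL and at 361, 254, 149, 348 and 287 RPKM in MCAO replicates 1 to 5. The MCAO libraries of Cort-/- mice all lay above the CL libraries, while in Cort+/+ mice MCAO replicate 4 lay below CL replicate 1. The log2 fold change was 1.96 ± 0.44 (SE) in Cort-/- (limma, adjusted p = 0.0424), 1.71 ± 0.49 in Cort+/+ (adjusted p = 0.319) and 1.84 ± 0.33 over both genotypes (adjusted p = 0.00842). The call in Cort-/- was lost, with adjusted p from 0.0552 to 0.182, when any 1 of 9 libraries was left out (Cort-/- CL 1, 2 or 3, Cort-/- MCAO 1, 2, 4 or 5, Cort+/+ CL 2 or Cort+/+ MCAO 2). It was also lost with a pseudocount of 1 RPKM (0.0558) and without the variance trend (0.0678). Over both genotypes Gfap was called in all 14 leave-one-out fits.

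Vim, the filament protein vimentin that assembles together with Gfap in reactive astrocytes, lies on chromosome 2 (13578738 to 13587639, plus strand, 9 exons). Its levels were 29.3, 13.98 and 14.7 RPKM in Cort+/+ CL and 72.1, 83.7 and 55.7 RPKM in Cort+/+ MCAO. Those of Cort-/- mice were 14.7, 30.6 and 14.6 RPKM in CL and 126, 82.2, 58.6, 163 and 84.5 RPKM in MCAO. The lowest of the 8 MCAO libraries, at 55.7 RPKM, was above the highest of the 6 CL libraries, at 30.6 RPKM, a separation seen in 1.72% of all genes. The difference for Vim on the log2 scale was 2.36 ± 0.35 in Cort-/- (limma, adjusted p = 0.00904), 1.93 ± 0.39 in Cort+/+ (adjusted p = 0.157) and 2.15 ± 0.26 over both (adjusted p = 0.00144). Without Cort-/- CL replicate 1 or 3 the adjusted p for Vim in Cort-/- was 0.0538 or 0.0521, and for Cd44 it was 0.0590 or 0.0533. An antisense lncRNA, Gm54102, shares 586 exon bases with Vim, and the strand setting of the read counting is not given in the sources used here.

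Nes encodes nestin, a filament protein of neural progenitors that returns in reactive astrocytes, and lies on chromosome 3 (87878385 to 87887758, plus strand, 4 exons). It was at 1.52, 1.89 and 1.86 RPKM in Cort+/+ CL and at 6.21, 4.24 and 4.61 RPKM in Cort+/+ MCAO. Cort-/- mice had 1.45, 1.81 and 1.30 RPKM in CL and 7.50, 5.69, 4.79, 8.26 and 5.35 RPKM in MCAO. The MCAO and CL libraries did not overlap, with 4.24 RPKM as the lowest MCAO value and 1.89 RPKM as the highest CL value. Nes had the lowest adjusted p of the 9 genes, 1.59e-04 over both genotypes (limma, log2 fold change 1.71 ± 0.14), and was called in all 14 leave-one-out fits. For Cort-/- mice the change was 1.97 ± 0.18 (adjusted p = 0.00304), again called in all 14. In Cort+/+ mice it was 1.45 ± 0.20 (adjusted p = 0.0584), and Nes was called there in 5 of the 14 fits, with adjusted p from 0.0206 to 0.0466 (without Cort-/- CL 2, Cort-/- MCAO 3 or 4, or Cort+/+ MCAO 3 or 4).

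Lcn2, Serpina3n and Ptx3 encode secreted proteins of the acute-phase kind, and their spread within groups was wide beside that of the filament genes. Lcn2 is lipocalin-2, which binds bacterial iron carriers (siderophores), on chromosome 2 (32274645 to 32278264, minus strand, 6 exons). It was at 5.84, 0.632 and 0.849 RPKM in Cort+/+ CL and at 5.59, 14.3 and 1.84 RPKM in Cort+/+ MCAO. In Cort-/- mice it was at 1.78, 3.78 and 2.43 RPKM in CL and at 7.43, 6.99, 0.993, 30.8 and 7.81 RPKM in MCAO. The groups overlapped in both genotypes, since MCAO replicate 3 of Cort-/- lay below all 3 CL libraries and CL replicate 1 of Cort+/+ lay above 2 of the 3 MCAO libraries. The log2 fold change was 1.36 ± 0.95 in Cort-/- (limma, adjusted p = 0.633), 1.76 ± 1.07 in Cort+/+ (adjusted p = 0.801) and 1.56 ± 0.72 over both genotypes (adjusted p = 0.333), and Lcn2 was called in none of the 14 leave-one-out fits of these 3 comparisons.

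Neutrophils are another source of Lcn2 in injured tissue. Their 7 markers (S100a8, S100a9, Ly6g, Mpo, Retnlg, Camp and Ltf) summed to 2.30 to 9.48 RPKM in CL and 2.33 to 15.3 RPKM in MCAO libraries, with none at 0 throughout a group. The highest sum was in Cort-/- MCAO replicate 4, where Lcn2 was also highest, and 0 of the 7 markers were called in MCAO against CL in either genotype or over both. The part of such cells in the Lcn2 values was not tested.

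Serpina3n, a serine protease inhibitor and among the most used markers of reactive astrocytes, lies on chromosome 12 (104372810 to 104380597, plus strand, 5 exons). It was at 59.6, 11.4 and 9.72 RPKM in Cort+/+ CL and at 51.04, 149 and 27.1 RPKM in Cort+/+ MCAO. Levels in Cort-/- mice were 12.5, 47.6 and 12.4 RPKM in CL and 147, 76.5, 36.9, 214 and 105 RPKM in MCAO. Of the Cort-/- MCAO libraries, replicate 3 alone fell below the highest CL library, while in Cort+/+ mice CL replicate 1 exceeded 2 of the 3 MCAO libraries. As log2 fold changes these were 2.33 ± 0.75 in Cort-/- (limma, adjusted p = 0.159), 1.65 ± 0.83 in Cort+/+ (adjusted p = 0.69) and 1.99 ± 0.56 over both genotypes (adjusted p = 0.0772). Over both genotypes Serpina3n was called without Cort+/+ CL replicate 1 (adjusted p = 0.0285) or without Cort-/- MCAO replicate 3 (adjusted p = 0.0433).

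Serpina3n belongs to a cluster of near-identical genes, so the assignment of its reads is less certain than for the other members. Of 9 relatives tested (Serpina3a to Serpina3m, with Serpina3k not analysed here) 0 were called by limma in MCAO against CL, and together they summed to 0.459 to 2.33 RPKM per library. Serpina3n alone was at 9.72 RPKM or more in every library.

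Ptx3 encodes pentraxin 3, a secreted pattern-recognition protein, on chromosome 3 (66127331 to 66133226, plus strand, 3 exons). It was low, at 0.537, 0.122 and 0.113 RPKM in Cort+/+ CL and at 0.674, 1.33 and 0.306 RPKM in Cort+/+ MCAO. Cort-/- libraries had 0.275, 0.253 and 0.0976 RPKM in CL and 1.43, 1.02, 0.319, 2.12 and 0.811 RPKM in MCAO. The 5 MCAO libraries of Cort-/- lay above the 3 CL libraries, a separation found in 4.85% of all genes, and those of Cort+/+ overlapped. These levels rest on 6 to 168 reads per library. Ptx3 had a log2 fold change of 1.86 ± 0.55 in Cort-/- (limma, adjusted p = 0.125), 1.30 ± 0.62 in Cort+/+ (adjusted p = 0.65) and 1.58 ± 0.41 over both (adjusted p = 0.0583). Over both genotypes Ptx3 was called without Cort-/- MCAO 3 (adjusted p = 0.0183), without Cort+/+ CL 1 (0.0319) or without Cort+/+ MCAO 4 (0.0335), and in Cort-/- without Cort-/- MCAO 3 (0.0384).

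Timp1, a secreted inhibitor of matrix metalloproteinases, had the largest fold of the 9 genes in each genotype and ranked 22 among 15063 genes averaging 1 RPKM or more when both genotypes were averaged. It lies on the X chromosome (20736316 to 20740976, plus strand, 6 exons), within the span of Syn1 on the opposite strand, a neuronal gene at 181 RPKM with which it shares 0 exon bases. Timp1 was at 1.58, 0.326 and 0.362 RPKM in Cort+/+ CL and at 4.26, 8.55 and 1.64 RPKM in Cort+/+ MCAO. The Cort-/- values were 0.751, 2.37 and 0.661 RPKM in CL and 10.997, 6.14, 3.11, 17.7 and 5.88 RPKM in MCAO. The groups did not overlap within either genotype, by a margin of 1.64 against 1.58 RPKM in Cort+/+, where 5.73% of all genes were so separated. The log2 fold change was 2.68 ± 0.66 in Cort-/- (limma, adjusted p = 0.0641), 2.54 ± 0.74 in Cort+/+ (adjusted p = 0.324) and 2.61 ± 0.50 over both genotypes (adjusted p = 0.0116), the last called in all 14 leave-one-out fits. In Cort-/- Timp1 was called without Cort-/- MCAO 3 (adjusted p = 0.0326) or without Cort+/+ MCAO 4 (0.0484).

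Cd44, a cell-surface receptor for hyaluronan and osteopontin, lies on chromosome 2 (102641486 to 102732010, minus strand, 19 exons). It was at 0.858, 0.619 and 0.616 RPKM in Cort+/+ CL and at 2.48, 3.42 and 1.61 RPKM in Cort+/+ MCAO. In Cort-/- mice it was at 0.795, 1.12 and 0.858 RPKM in CL and at 4.48, 2.89, 2.06, 5.14 and 3.90 RPKM in MCAO. All 8 MCAO libraries lay above all 6 CL libraries. On the log2 scale the difference was 1.84 ± 0.28 in Cort-/- (limma, adjusted p = 0.0103), 1.66 ± 0.31 in Cort+/+ (adjusted p = 0.135) and 1.75 ± 0.21 over both genotypes (adjusted p = 0.00143), the last called in all 14 leave-one-out fits. In Cort+/+ it was called only without Cort+/+ MCAO 4 (adjusted p = 0.0276).

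Steap4, a metalloreductase that reduces iron and copper at membranes, lies on chromosome 5 (8010260 to 8032214, plus strand, 5 exons). It had 6 to 47 reads per library. It was at 0.332, 0.0825 and 0.0764 RPKM in Cort+/+ CL, at 0.0969, 0.241 and 0.113 RPKM in Cort+/+ MCAO, at 0.156, 0.257 and 0.0587 RPKM in Cort-/- CL and at 0.269, 0.153, 0.168, 0.357 and 0.240 RPKM in Cort-/- MCAO. The groups overlapped in both genotypes. The log2 fold change over both genotypes was 0.22 with a 95% confidence interval from -0.36 to 0.81 (limma, adjusted p = 0.788), so a rise of up to 0.81 cannot be told from none at this depth. These values are near the pseudocount of 0.1 RPKM, which pulls the fold change of such a gene toward 0.

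**Figure D2:**
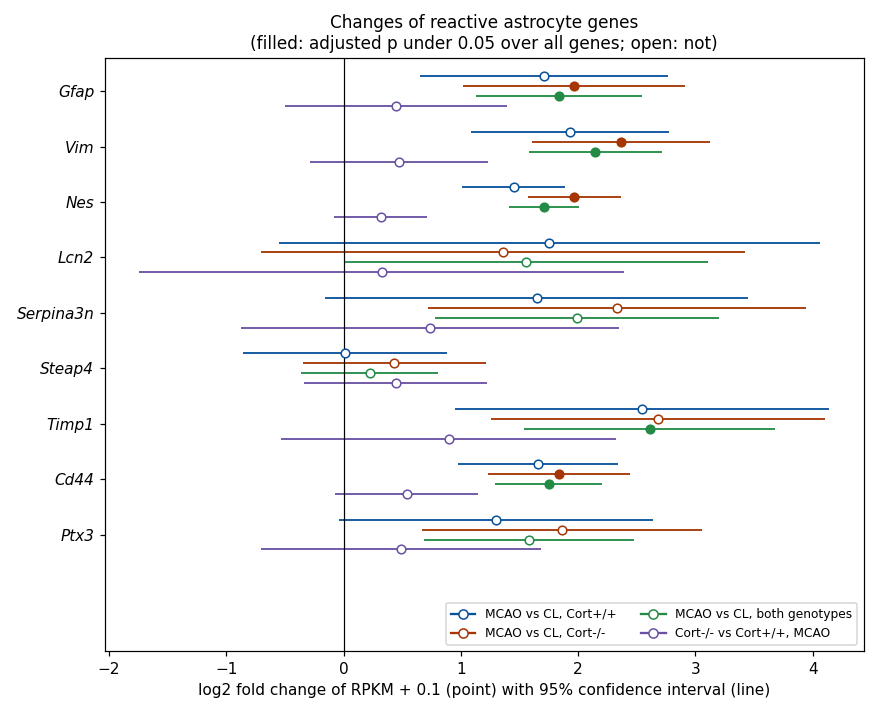
Log2 fold changes of RPKM + 0.1 with 95% confidence intervals (horizontal axis) for each gene (vertical axis) in 4 comparisons from limma. Filled points passed an adjusted p of 0.05 over all genes and open points did not. The intervals of MCAO against CL over both genotypes lie above 0 for 8 of the 9 genes, with Steap4 as the exception, while the intervals of Cort-/- against Cort+/+ in MCAO include 0 for each gene.

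Between the genotypes no difference of these genes passed the test, by limma or by limma voom. In the MCAO hemisphere the 9 genes were each higher in Cort-/- than in Cort+/+ on the log2 scale, as were 49.2% of all genes. Their median difference was 0.47 against -0.0021 for all genes. The 9 genes moved together within groups, so they are not 9 separate observations. Without Cort+/+ MCAO replicate 4 the difference was 0.092 for Gfap, 0.034 for Ptx3 and -0.42 for Lcn2. Without Cort+/+ MCAO replicate 3 it was 0.76, 0.94 and 1.03. Of the 9 genes 0 were called (adjusted p = 1 for each, limma) and 0 had an unadjusted p under 0.05. By these rules 0.00434% and 1.54% of all genes were called higher. The differences ran from 0.31 for Nes (95% confidence interval -0.079 to 0.71) to 0.89 for Timp1 (-0.53 to 2.32). Cd44 had the lowest unadjusted p, 0.0788, with a difference of 0.54 (-0.071 to 1.14). The intervals thus leave room for differences beyond 1 on the log2 scale in 8 of the 9 genes, Nes being the exception. The group ranges of all 9 genes overlapped, and 0.861% of all genes were higher in every Cort-/- than in every Cort+/+ library: Gfap, for example, was at 120 to 304 RPKM in Cort+/+ MCAO and at 149 to 361 RPKM in Cort-/- MCAO.

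In the CL hemisphere 0 of 9 genes differed between genotypes by either rule (adjusted p = 1 for each, limma), where 0.00217% of all genes were called higher and 3.91% had an unadjusted p under 0.05 in either direction. The median difference, Cort-/- against Cort+/+, was 0.05. For the difference between the 2 responses (MCAO against CL in Cort-/- minus the same in Cort+/+) 0 of 9 genes were called and 0 had an unadjusted p under 0.05, against 0.00217% called higher and 3.31% in either direction among all genes. Its lowest unadjusted p was 0.0813, for Nes, where the response in Cort-/- was larger by 0.52 (95% confidence interval -0.074 to 1.11). Calls made in Cort-/- and missed in Cort+/+ therefore do not show that the genotypes differ, and Cort-/- MCAO had 5 libraries against 3.

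**Figure D3:**
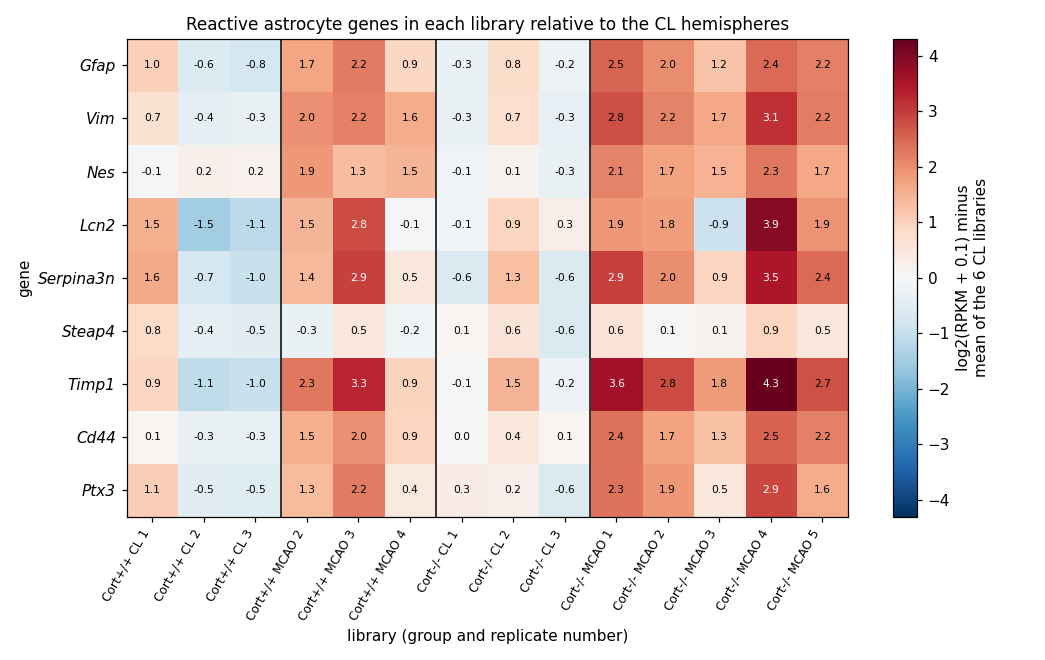
Each cell gives log2(RPKM + 0.1) of 1 gene (rows) in 1 library (columns, by group and replicate number) minus the mean over the 6 CL libraries, with red for higher and blue for lower. CL replicate 1 of Cort+/+ and CL replicate 2 of Cort-/- are red for 8 and 9 of the 9 genes, and the MCAO libraries of Nes, Vim and Cd44 are red throughout.

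Within each group the libraries tended to be high or low for most of the 9 genes at the same time. Among the Cort+/+ CL libraries replicate 1 was the highest for 8 of the 9 genes, the exception being Nes. Its ratio to the mean of the other CL libraries was 7.89 for Lcn2, 5.64 for Serpina3n, 4.60 for Timp1, 3.27 for Gfap, 2.05 for Vim, 1.39 for Cd44 and 0.808 for Nes. Among the Cort-/- CL libraries replicate 2 was the highest for 8 of the 9, the exception being Ptx3, with ratios of 3.82 for Serpina3n, 3.36 for Timp1, 2.03 for Gfap and 1.32 for Nes. In Cort+/+ CL replicate 1 the 12 astrocyte identity markers summed to 1558 RPKM, the highest of all 14. The 8 microglia and macrophage markers summed to 63.9 RPKM there, against 59.6 and 59.6 RPKM in the other Cort+/+ CL libraries. Their range over all CL libraries was 59.6 to 68.3 RPKM. Ligands that induce the reactive state, listed below, summed to 159 RPKM in this library, against 103 and 105 RPKM in those 2 others. The A1 genes, also listed below, summed to 64.8 RPKM, against 44.9 and 43.6 RPKM.

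Among the MCAO libraries, replicate 3 of Cort+/+ and replicate 4 of Cort-/- were each highest for 8 of the 9 genes, and replicate 4 of Cort+/+ and replicate 3 of Cort-/- were lowest for 7 and 8. Microglia and macrophage markers summed to 83.8 and 95.2 RPKM in those low libraries, the lowest sums of the 8 MCAO libraries, and to 131 and 143 RPKM in the high ones. Those low libraries also held the fewest reads assigned to genes of the 8 MCAO libraries, 31208143 (Cort+/+) and 25991115 (Cort-/-). The high ones held 40176342 (Cort+/+) and 40643748 (Cort-/-). The most reads, 43034554, were in Cort-/- MCAO replicate 2, which was highest for 0 of the 9 genes. The part of read depth, of lesion size or of the tissue taken in these differences was not tested.

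The pooled SD within groups on the log2 scale was 0.27 for Nes, 0.43 for Cd44, 0.51 for Steap4, 0.54 for Vim, 0.68 for Gfap, 0.84 for Ptx3, 1.02 for Timp1, 1.16 for Serpina3n and 1.48 for Lcn2, against a median of 0.12 over 15063 genes. With a wide spread, a fold change of similar size can miss the test: the log2 fold change over both genotypes was 1.99 for Serpina3n and 1.71 for Nes, with an SE of 0.56 against 0.14. Timp1, with the third widest spread, passed over both genotypes at a larger change of 2.61. After group means were removed, the Pearson correlation between pairs of these genes had a median of 0.86 over 36 pairs (14 libraries), from 0.15 for Nes with Steap4 to 0.98 for Serpina3n with Timp1. Within the 8 MCAO libraries the median was 0.88. Nes went its own way in the 6 CL libraries, where its correlation with the other 8 genes lay between -0.48 (Lcn2) and 0.10 (Vim). These correlations are descriptions over few libraries, which also differ in depth.

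Per length, Gfap was the most abundant of the 9 genes in each library and made up 52.9% to 58.9% of their summed group means. Serpina3n and Vim came next, their ranges overlapping in each group. Lcn2, Nes, Timp1 and Cd44 followed with ranges that overlapped with at least 1 neighbour, and Ptx3 and Steap4 were the lowest, at group means of 1.14 RPKM or less. The sum of all 9 was 66.2 to 231 RPKM in CL and 213 to 789 RPKM in MCAO libraries.

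The genes whose levels across the 14 libraries were most like each member, by Pearson correlation of log2(RPKM + 0.1) among 15063 genes averaging 1 RPKM or more, were Capg (r = 0.992), Cyba and Rab32 for Gfap, Flnc (0.990), Tuba1c and S100a6 for Vim, and Clcf1 (0.976), Lgals1 and Hbegf for Nes. For Lcn2 they were Sdc4 (0.974), Slc39a14 and Chst2, for Serpina3n Gpr84 (0.990), Aspg and Pros1, and for Ptx3 Slc39a1 (0.982), Ltbr and Tspo. For Timp1 they were Tlr13 (0.991), Capg and Gm42674, for Cd44 Tagln2 (0.989), Dock2 and Msn, and for Steap4 Sys1 (0.908), Eif2s3x and Plce1. The 14 libraries share the step from CL to MCAO, and which genes came nearest depended on the measure: 18 of these 27 stayed among the nearest with log2(RPKM + 1), 9 by rank correlation and 5 with the 8 MCAO libraries alone.

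Other genes of the reactive program were read from lists named in the literature on astrocyte states. Of 6 further pan-reactive genes 2 were called higher in Cort-/- MCAO, where 1.34% of all genes were. Cxcl10, a chemokine, rose by 3.57 ± 0.66 (log2, SE, limma adjusted p = 0.0213). S1pr3, a sphingosine-1-phosphate receptor, rose by 0.94 ± 0.21 (adjusted p = 0.0442). Over both genotypes 2.52% of all genes were called higher. In the list known as A2, linked to ischemia, 6 of 11 genes were called higher in Cort-/- and 8 over both genotypes. Among them were Tgm1, a transglutaminase (4.28 ± 0.55, adjusted p = 0.0070), Clcf1, a cytokine of the IL-6 family (2.53 ± 0.26, 0.00304), and Emp1, a membrane protein (2.12 ± 0.35, 0.0133). In the list known as A1, linked to inflammation, 2 of 11 were called higher in Cort-/- and 5 over both. The 2 were the interferon-induced genes Gbp2 (2.07 ± 0.39, limma adjusted p = 0.0223) and Psmb8 (1.82 ± 0.40, 0.0415). Iigp1 had a larger change that missed the threshold in Cort-/- (2.16 ± 0.53, 0.0643). In Cort+/+ 0 pan-reactive, 0 A1 and 1 A2 gene (Tgm1, 4.60 ± 0.62, limma adjusted p = 0.0471) passed, where 0.00868% of all genes were called higher. The fold change was above 0 in 5 pan-reactive, 10 A1 and 11 A2 genes in Cort+/+, and in 5, 9 and 11 in Cort-/-. Of all genes 49.6% and 50.2% were above 0 in these 2 comparisons.

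Among ligands that induce the reactive state, 4 of 12 were called higher in Cort-/-. They were Tgfb1 (1.23 ± 0.21, limma adjusted p = 0.0166) and the complement genes C1qa, C1qb and C1qc (C1qb 1.37 ± 0.27, 0.0277). All 12 ligands had a fold change above 0 in each genotype, with a median of 1.12 in Cort-/- and 0.93 in Cort+/+. Of their receptors and transcription factors 1 of 12 was called in Cort-/-, the TNF receptor Tnfrsf1a (1.26 ± 0.29, limma adjusted p = 0.0498). The STAT3 target Socs3 changed by 1.50 ± 0.39 (0.0798). In Cort+/+ limma called 0 genes of either list, where 0.00868% of all genes were called higher. Among partners and relatives of the 9 genes 5 of 24 were called higher in Cort-/-. Spp1, which encodes the Cd44 ligand osteopontin, rose by 3.28 ± 0.53 (limma adjusted p = 0.0130). Steap3, a relative of Steap4, rose by 0.59 ± 0.12 (0.0296). The metalloproteinase Mmp12 rose in both genotypes, by 1.98 ± 0.20 in Cort-/- (0.00304) and 2.46 ± 0.23 in Cort+/+ (0.00169), and was singled out after its values were seen.

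**Figure D4:**
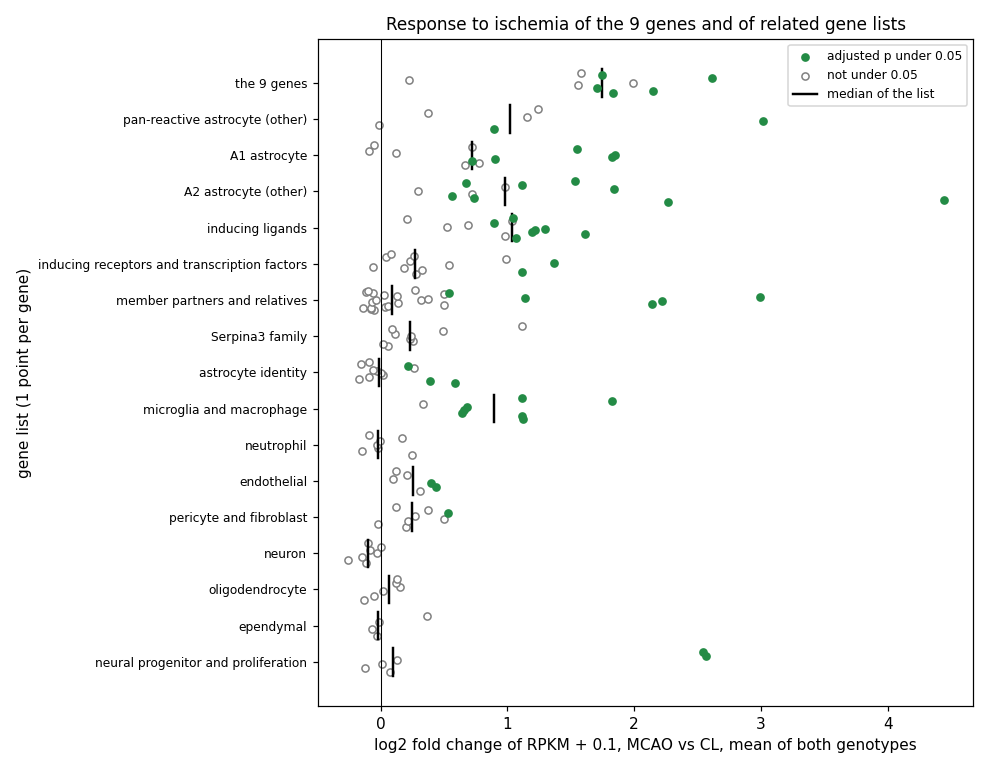
Log2 fold change of RPKM + 0.1, MCAO against CL averaged over both genotypes (horizontal axis), for the 9 genes and 16 other gene lists (vertical axis, 1 point for each gene, black bars for list medians). Filled points passed an adjusted p of 0.05. The median is 1.75 for the 9 genes, 1.02 for the other pan-reactive genes, 0.98 for A2, 0.72 for A1, 0.90 for microglia and macrophages and -0.01 for astrocyte identity.

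General astrocyte markers moved little, with a median log2 fold change of -0.01 over both genotypes. In Cort-/- 1 of 12 was called higher (the water channel Aqp4, by 0.68 ± 0.13, limma adjusted p = 0.0232). Over both genotypes 3 of 12 were. Microglia and macrophage markers were called higher in 6 of 8 cases in Cort-/- and in 7 of 8 over both genotypes, with 0 of 8 called in Cort+/+. All 8 markers had a fold change above 0 in each genotype, with a median of 0.93 in Cort-/- and 0.83 in Cort+/+. Their sum went from 59.6 to 68.3 RPKM in CL to 83.8 to 154 RPKM in MCAO, with no marker at 0 in a group, and examples are Cd68 (1.97 ± 0.31 in Cort-/-, 0.0126), Itgam (1.26 ± 0.18, 0.00904) and Aif1 (1.16 ± 0.21, 0.0213). These markers were on average higher in MCAO than in CL, as were the 9 genes. Of the 9, Cd44, Vim and Timp1 are also made by such cells, and the part of these cells in the result was not tested.

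In the other cell-type lists, calls in Cort-/- numbered 1 of 6 endothelial (Cdh5, 0.55 ± 0.13, limma adjusted p = 0.0479), 1 of 8 pericyte and fibroblast (Dcn, 0.67 ± 0.10, 0.00964), 2 of 6 progenitor and proliferation (Mki67, 2.57 ± 0.30, 0.00579, and Top2a, 2.54 ± 0.32, 0.00698) and 0 of 7 neuron, 0 of 6 oligodendrocyte and 0 of 4 ependymal markers. Both progenitor-list genes that were called mark dividing cells of any kind. The summed levels were 37.96 to 51.7 RPKM in CL and 49.7 to 67.2 RPKM in MCAO for endothelial markers, and 39.05 to 45.1 and 45.1 to 55.4 RPKM for pericytes and fibroblasts. No gene of any list was called lower in MCAO, where 0.00217% of all genes were in Cort+/+, 0.382% in Cort-/- and 0.902% over both genotypes, and the same test called 0 of them between genotypes.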

How the data were processed

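Gene expression was measured in 14 libraries of mouse brain hemispheres, each made from 200 ng of RNA with a stranded mRNA kit. The authors counted reads on GRCm39 with GENCODE M28 annotation and reanalyzerGSE 3.0.0 and deposited RPKM values per gene. The aligner settings and the strand setting of counting are not given in the sources used here. Read numbers were recovered from the RPKM values deposited by the authors for 100% of 495656 values (tolerance 0.0001 reads). The annotated gene length gave whole numbers for 21145 genes. For 25759 genes, the 9 among them, the length was searched as the smallest that made all values whole. There the whole numbers are no separate check, and a factor common to all reads of a gene would be missed. Library totals of 25991115 to 43034554 reads limit the precision of genes with few reads.

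Samples were grouped by GEO's labels. The 46102 genes above 0 in at least 2 libraries were tested on log2(RPKM + 0.1) in 1 linear model of the 4 groups with limma 3.58.1 (R 4.3.3), with moderated, trended variance, two-sided tests and Benjamini-Hochberg adjustment over all genes at 0.05. Fold changes are on the log2(RPKM + 0.1) scale and understate the change of low genes. Related genes were named as follows: of each list, at most the 3 genes with the lowest adjusted p called in Cort-/- among those averaging 0.5 RPKM or more, and the gene with the largest change whether called or not. Other genes named as members of a counted set were chosen after their values were seen. The 9 genes and the lists were chosen with earlier results of these data known. Positions and upstream sequences came from GRCm39 and GENCODE M39. Alternatives were other pseudocounts, filters, scalings, variance models, recovered reads, a replicate block and leaving out each library. The replicate spread measures variation between these samples.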

Additional observations from a re-analysis of the deposited data

Results flagged for a closer look

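Lcn2 in Cort-/- MCAO replicate 4 stood far from the other libraries of its group: at 30.8 RPKM against 0.993, 6.99, 7.43 and 7.81 RPKM, its gap to the nearest library was 0.771 of the group's whole range, above Dixon's 95% critical value of 0.710 for 5 samples. The test was made for the 9 genes in the 1 group of more than 3 libraries, and chance flags about 1 in 20 such groups if values are normally distributed. It used RPKM itself and not the log2 scale of the other tests, on which the flag was not examined. Without this library the log2 fold change of Lcn2 in Cort-/- was 0.81 instead of 1.36, and its difference between genotypes in MCAO changed sign.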

How the results depend on the processing

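Of the alternatives, 6 called 1 of the 9 genes in Cort+/+ instead of 0, Nes in each case: log2(RPKM + 0.01), a mean of at least 0.5 RPKM, TPM, quantile normalization, library weights and limma voom on recovered reads. In the same order the calls over all genes were 22, 28 (of 17476 genes), 9, 13, 9 and 54, against 5 in the main fit. In Cort-/- 1 gene instead of 4 was called with only the groups compared, where the calls over all genes fell from 792 to 86 of 46102. Leaving out each library in turn gave 0 to 2 genes called in Cort+/+ (2 without Cort+/+ MCAO replicate 4, with 159 calls over all genes). In Cort-/- it gave 1 to 6 (1 without Cort-/- CL replicate 1 or 3, with 130 or 144 calls over all genes). The 6 came without Cort-/- MCAO replicate 3, with 1180 calls over all genes. Over both genotypes it gave 5 to 7, with 929 to 1904 calls over all genes, and in the genotype comparisons 0 to 0. The causes were not tested.

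The correlation of deviations from group means in 5 same-numbered pairs ran from -0.239 to 0.316, with 1 above 0.1. Pairs with different numbers ran from -0.316 to 0.404. With so few libraries, these values cannot decide whether equal numbers mean the same mouse. With the replicate block 0 of the 9 genes were called in Cort-/- and 0 over both genotypes, as were 0 of all genes. In that fit MCAO against CL, and the difference between the responses, rest only on the same-numbered pairs. Cort+/+ CL 1, Cort+/+ MCAO 4 and Cort-/- MCAO 4 and 5 had no partner and so did not contribute. The difference between the responses changed sign with the replicate block for Gfap (-0.83), Vim (-0.26), Serpina3n (-1.10), Steap4 (-0.27), Timp1 (-1.42), Cd44 (-0.46) and Ptx3 (-0.68).

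Other sign changes were of values that passed no test: Steap4 in Cort+/+ (-0.012 with log2(RPKM + 1), -0.041 with quantile normalization), Steap4 between genotypes in CL (-0.0040 with log2(RPKM + 1)) and Ptx3 there (0.042 with library weights). Scaling moved the all-gene median by less than 0.1.

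Leaving out 1 library also turned values that passed no test. Their ranges were -0.23 to 0.43 for Steap4 in Cort+/+ and -0.42 to 1.03 for Lcn2 between genotypes in MCAO. Between genotypes in CL they were -0.14 to 0.77 for Gfap, -0.31 to 0.38 for Vim, -0.59 to 0.88 for Serpina3n, -0.25 to 0.44 for Steap4 and -0.34 to 0.45 for Ptx3. For the difference between the responses they were -0.32 to 0.59 for Gfap, -1.34 to 0.31 for Lcn2, -0.14 to 1.35 for Serpina3n, -0.0012 to 0.70 for Steap4, -0.50 to 0.69 for Timp1 and -0.098 to 0.43 for Cd44.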
